A study of Mus musculus with 15 samples.

Results

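The comparison asks what a B cell receptor stimulus adds to CpG. All cells were AM-14 B cells, which carry a transgenic receptor that binds self IgG. It set 3 arrays of cells given anti-IgM and CpG together against 3 arrays of cells given CpG alone, 6 of the 15 Affymetrix mouse arrays of the series, over all genes on the array. Anti-IgM was a goat F(ab')2 fragment against mouse IgM, and CpG was the phosphorothioate oligodeoxynucleotide 1826. The combined group was taken from its sample titles, since its treatment entry says none although the descriptions give anti-IgM and CpG. Cells given anti-IgM alone and cells kept in media, 3 arrays each, gave the receptor effect without CpG. The remaining 3 arrays were from cells given PL2-3 (an anti-chromatin antibody, called a chromatin immune complex in the labels). They served in the fit, in the ranges of the control ratios and Xist, in the differences between labelling kits, and beside Tnfsf14. Dose, time of stimulation, strain background and age are not given in the sources used here. Nothing in the labels says that replicates came from separate mice or cultures, so p-values measure only the spread between these samples, which may be technical.

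Anti-IgM crosslinks the B cell receptor, which signals through Syk-family kinases to calcium and NFAT, to ERK and the early growth response genes, and to NF-kB. Unmethylated CpG DNA is sensed in endosomes by TLR9, which signals through MyD88 to NF-kB and to cytokine genes. Both stimuli drive resting B cells out of quiescence. Receptor ligation also feeds back on its own components, many of which B cells turn down after activation.

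The anti-IgM+CpG arrays differed from the CpG arrays in a control ratio and from all other arrays in Xist. The arrays carry beta-actin control probe sets at the 5' and 3' end of the transcript, and the ratio of their signals is a control of how evenly the transcript was copied. Per the labels, replicates 1 and 2 of every group were labelled with the Enzo kit and replicate 3 with the Ambion kit. The beta-actin ratio was 0.105, 0.193 and 0.177 on anti-IgM+CpG replicates 1, 2 and 3, against 0.559, 0.556 and 0.201 on CpG replicates 1, 2 and 3. In the 4 other groups the 8 Enzo arrays lay between 0.335 and 0.747 and the 4 Ambion arrays between 0.108 and 0.201, so all 3 anti-IgM+CpG arrays lay within or below the Ambion range although 2 of them are labelled Enzo. Whether labelling or the quality of the RNA set these ratios was not tested. The groups did not overlap (means 0.158 ± 0.0469 and 0.439 ± 0.206, SD, n = 3 each, two-sided exact permutation p = 0.1, the smallest that 3 against 3 allows). For the Gapdh control the ratio was 0.135 to 0.409 on anti-IgM+CpG arrays and 0.588, 0.674 and 0.327 on CpG arrays (exact permutation p = 0.3), with overlap.

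Xist is the RNA that coats the inactive X chromosome of female cells. Its signal was 589, 391 and 321 on the anti-IgM+CpG arrays, against 7720, 15543 and 11170 on the CpG arrays, and 4252 to 15543 over all 12 other arrays. The Y-linked Kdm5d was at 1035 to 1146 in anti-IgM+CpG and at 233 to 607 in CpG, and Eif2s3y at 2486 to 4769 and 605 to 2440, with the media arrays reaching 1771 and 4782 for these genes. The anti-IgM+CpG arrays thus lay below all 12 others in Xist, and a difference in the mice of origin cannot be told apart from the added stimulus. Array medians were 266 to 303 in anti-IgM+CpG and 396, 389 and 263 in CpG.

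**Figure D1:**
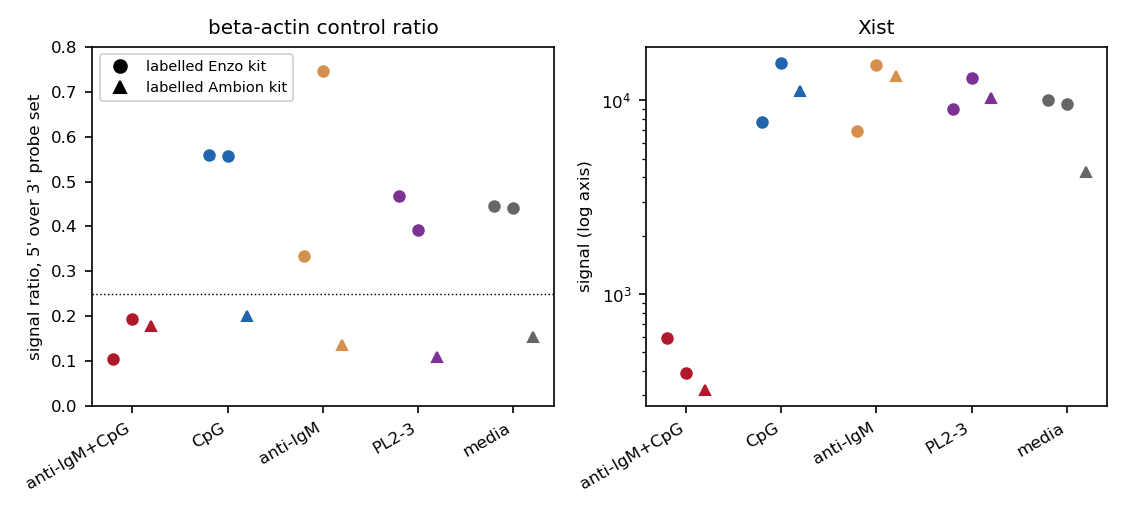
Beta-actin control ratio (left, signal of the 5' over the 3' probe set, dotted line at 0.25) and Xist signal (right, log axis) on each of the 15 arrays, 1 point per array, circles for the labelled Enzo kit and triangles for Ambion. All 3 anti-IgM+CpG arrays lie below 0.25 in beta-actin ratio and, at 321 to 589, below all 12 other arrays in Xist.

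For some genes the change differed widely between the labelling terms, as in Syt11 and Taok1, which were picked for this after their values were seen and stand as a description. Syt11 was at 79700, 44084 and 62512 in anti-IgM+CpG and at 622, 1315 and 46059 in CpG. Over the 9 arrays of the other 3 groups the Ambion minus Enzo difference of Syt11 was 6.09 on the log2 scale, and that of Taok1 was -5.56. With the labelled kits as a term, Syt11 rose by 4.09 ± 0.93 (limma adjusted p = 0.018) and Taok1 changed by -4.05 ± 0.89 (adjusted p = 0.016). With the beta-actin ratio deciding an array's labelling class in place of the kit, the 2 genes were at 0.12 ± 0.33 and -0.38 ± 0.40 (adjusted p = 0.94 and 0.81). Without anti-IgM+CpG replicate 3 the kit-term values were 6.05 and -5.87, and without replicate 1 of that group 3.04 for Syt11. Both kit-term calls ended without replicate 1 or 2 of either group (adjusted p 0.057 to 0.105). Taok1 was at -3.28 without anti-IgM+CpG replicate 2, and 3 other Syt11 probe sets ran from -1.10 to -0.28. Each change below was computed with both labelling terms, and genes named for size passed with both. By beta-actin ratio all 3 anti-IgM+CpG arrays are low, and of the CpG arrays only replicate 3 is. With that term CpG replicates 1 and 2 count only after a shift by the labelling difference. That difference is estimated in the groups other than anti-IgM+CpG and taken as the same in all of them.

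In the limma fit over all 15 arrays with the kit term, 252 of 13160 genes tested rose in anti-IgM+CpG against CpG (1.91%) and 344 fell (2.61%), 4.53% in both directions, at a Benjamini-Hochberg adjusted p under 0.05. With the beta-actin term 158 rose (1.20%) and 188 fell (1.43%), 2.63% in both directions, and 108 rising and 144 falling genes were called by both, which is 42.3% of the kit-term calls. In all 252 genes called by both terms the 3 anti-IgM+CpG arrays lay wholly above or below the 3 CpG arrays, which 17.8% of all genes tested did (8.07% above and 9.77% below). Changes are log2 of the signal plus 75.2, with SE and n = 3 arrays a group, and understate the change of dim genes. The 596 calls became 281 without anti-IgM+CpG replicate 2, 273 without CpG replicate 1, 263 without CpG replicate 2 and 1602 without anti-IgM+CpG replicate 3. With every array shifted to the same median instead, the median change of all genes moved to 0.23 from -0.03, and 71.1% of 419 calls were rises, against 42.3% of 596, so the split between rises and falls rests on the scaling. All 28 genes named for their size kept the kit-term call without any 1 of the 6 arrays. With the beta-actin term 20 of them did, and Rab30, Tnfsf14, Slco4a1, C1qa, Ppp1r3b, Ptcd1, Bcl2l11 and Cnr2 lost it without at least 1 array. CpG replicate 3 ended it for all of these but Cnr2 (adjusted p 0.353, 0.126, 0.145, 0.108, 0.132, 0.107 and 0.0627), and for Cnr2 the highest adjusted p was 0.0927, without anti-IgM+CpG replicate 3.

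The genes that rose most with the added receptor stimulus coded for a chemokine, an endolysosomal inhibitor and several regulators of transcription and signalling. Xcl1, the chemokine lymphotactin, gave signals of 7528, 19325 and 20096 in anti-IgM+CpG, against 1205, 775 and 543 in CpG. The lowest anti-IgM+CpG array was thus several times above the highest CpG array. Xcl1 rose by 4.04 ± 0.32 (adjusted p = 4.5e-06), and by 4.27 ± 0.34 with the beta-actin term. Cst7, cystatin F, an inhibitor of cysteine proteases in endosomes and lysosomes, was at 4880, 4503 and 4981 in anti-IgM+CpG and at 647, 629 and 450 in CpG. Its replicates lay close together in both groups, and it rose by 2.92 ± 0.20 (adjusted p = 1.3e-06).

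Among transcription factors, Ahr, the aryl hydrocarbon receptor, was at 8810, 12630 and 15409 in anti-IgM+CpG and at 1673, 2412 and 1514 in CpG. Egr2, an early growth response factor induced by receptor signalling, was at 24546, 17236 and 23717 in anti-IgM+CpG and at 4054, 3802 and 3409 in CpG. Both were well separated between the groups, with rises of 2.66 ± 0.29 for Ahr (adjusted p = 8.7e-05) and 2.50 ± 0.22 for Egr2 (adjusted p = 1.3e-05). A second Ahr probe set gave 0.46 and a second Egr2 probe set 2.52. Gfi1, a transcriptional repressor, rose by 2.29 ± 0.23.

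Rgs16, a regulator of G protein signalling, was at 877, 2126 and 1068 in anti-IgM+CpG and at 130, 262 and 56.0 in CpG, and rose by 2.68 ± 0.34, with other probe sets at 0.20 and 3.24. Tnfsf14, the TNF family ligand LIGHT, was at 710, 519 and 491 in anti-IgM+CpG and near the bottom of the scale, at 58.7, 17.3 and 12.5, in CpG. It rose by 2.64 ± 0.52 (adjusted p = 0.0075). Rab30, a small GTPase of the Golgi, was at 2240, 523 and 475 in anti-IgM+CpG and at 125, 31.8 and 44.2 in CpG. Its rise of 2.74 ± 0.52 became 1.96 without anti-IgM+CpG replicate 1, which held the highest signal, and 3.37 without replicate 3. The other size-ranked rises were Bex1 (2.59), Tmem51 (2.42), the myelin protein gene Pmp22 (2.34), the sterol sulfotransferase gene Sult2b1 (2.29), the organic anion transporter gene Slco4a1 (2.27) and the predicted gene Gm6377 (2.15).

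**Figure D2:**
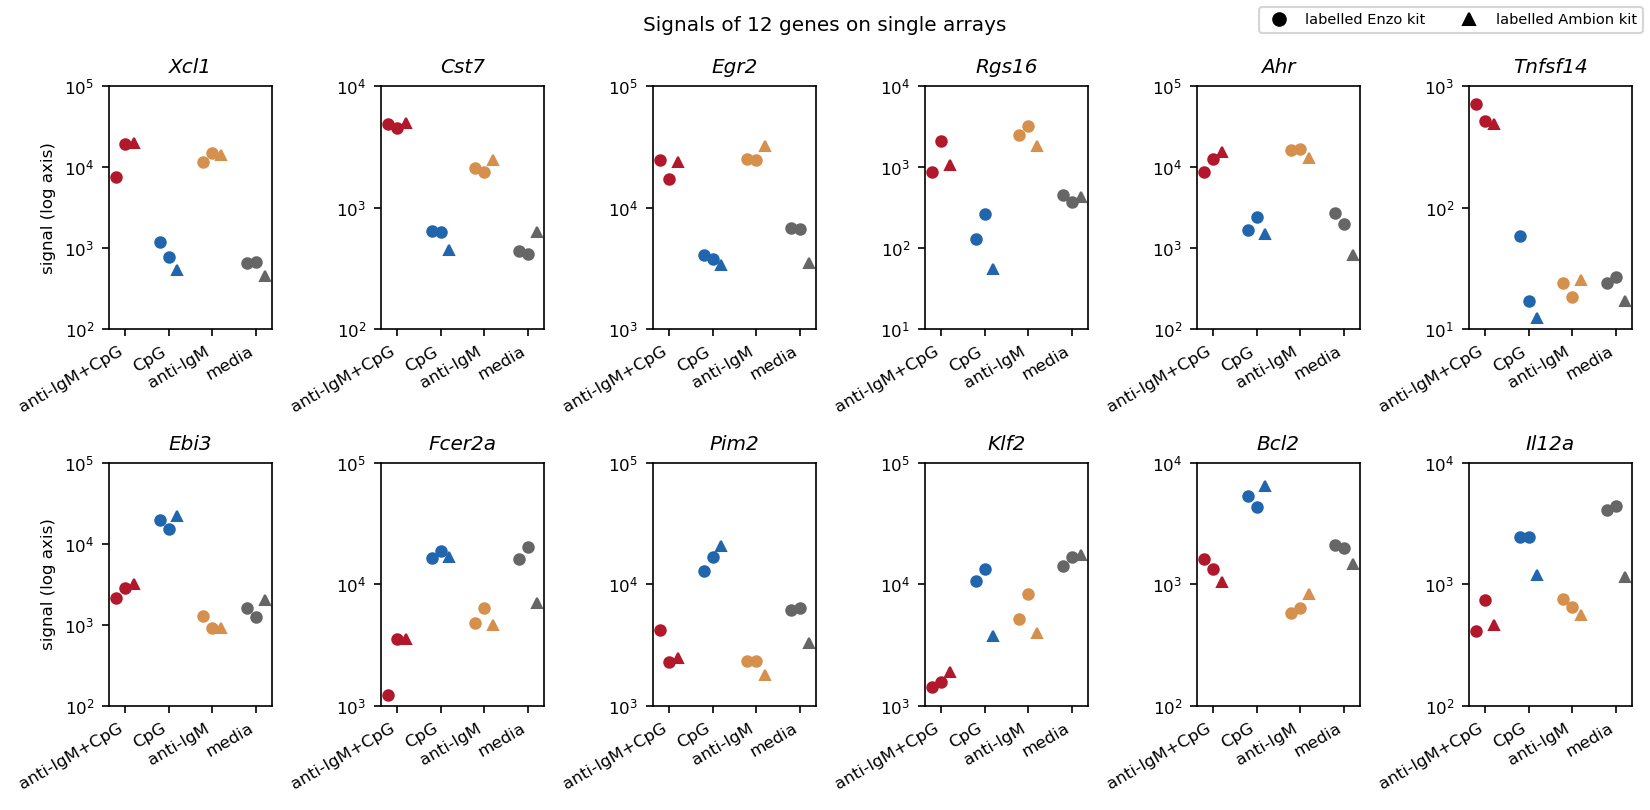
Signal of 12 genes on each array (log axis, 1 point per array) in anti-IgM+CpG, CpG, anti-IgM alone and media, circles for the labelled Enzo kit and triangles for Ambion. In the upper row (Xcl1, Cst7, Egr2, Rgs16, Ahr, Tnfsf14) all 3 anti-IgM+CpG arrays lie above the CpG arrays, and in the lower row (Ebi3, Fcer2a, Pim2, Klf2, Bcl2, Il12a) below them.

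The promoter windows of the 2 largest rises and of Ebi3, the largest fall outside the sex-linked genes whose value hardly moved between the labelling terms, are given to show what lies 250 bases before to 50 after their starts. They were taken from RefSeq on GRCm38.p6, at chr1:164935473-164935772 on the minus strand for Xcl1, chr2:150570165-150570464 on the plus strand for Cst7 and chr17:55952373-55952672 on the plus strand for Ebi3, and are written 5′ to 3′ on the gene's strand. Capitals mark matches to any of 4 motifs searched on both strands, an EGR motif (GCGNGGGCG), an AP-1 motif (TGANTCA), a kB motif and an NFAT core (TGGAAA), none of which overlapped in these windows.
Xcl1: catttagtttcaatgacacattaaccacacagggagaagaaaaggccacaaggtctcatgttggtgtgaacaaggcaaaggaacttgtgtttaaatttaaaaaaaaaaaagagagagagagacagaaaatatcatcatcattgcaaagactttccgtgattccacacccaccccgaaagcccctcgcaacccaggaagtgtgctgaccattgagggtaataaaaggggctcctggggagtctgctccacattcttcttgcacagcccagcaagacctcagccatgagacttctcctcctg
Cst7: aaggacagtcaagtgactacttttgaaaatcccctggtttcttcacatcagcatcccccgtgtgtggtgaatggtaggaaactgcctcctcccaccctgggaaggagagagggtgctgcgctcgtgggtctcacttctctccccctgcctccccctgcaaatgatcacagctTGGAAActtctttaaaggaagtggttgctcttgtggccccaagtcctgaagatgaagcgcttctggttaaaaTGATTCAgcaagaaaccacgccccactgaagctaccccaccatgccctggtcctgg
Ebi3: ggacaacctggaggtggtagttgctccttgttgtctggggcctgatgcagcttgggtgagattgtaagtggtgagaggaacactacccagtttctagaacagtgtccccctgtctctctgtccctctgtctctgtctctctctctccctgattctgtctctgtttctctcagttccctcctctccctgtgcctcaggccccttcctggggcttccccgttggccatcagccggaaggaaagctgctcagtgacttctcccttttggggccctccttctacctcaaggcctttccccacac
The Cst7 window held 1 NFAT core and 1 AP-1 match, and the Xcl1 and Ebi3 windows held no match to these letters. Of the 108 genes that rose with both labelling terms, 84 had a window, 113 windows in all. Among them 24.8% held the NFAT core, 11.5% the EGR motif, 6.20% the AP-1 motif and 3.54% the kB motif. Over the 141 windows of 97 of the 144 falling genes the shares were 15.6%, 7.09%, 8.51% and 2.84% in the same order. Over the 13526 windows of all tested genes they were 17.2%, 9.57%, 5.84% and 1.35%. No test was made of these shares, and a match is a description of letters, not a site.

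The genes that fell most included a cytokine subunit, the low-affinity IgE receptor, a survival kinase and a quiescence factor. Ebi3, the shared subunit of interleukins 27 and 35, was at 2140, 2843 and 3225 in anti-IgM+CpG and at 19460, 15364 and 22023 in CpG. The anti-IgM+CpG values were close to those of media, 1622, 1238 and 2030. Ebi3 changed by -2.76 ± 0.23 (adjusted p = 4.6e-06) and by -2.80 ± 0.25 with the beta-actin term. Fcer2a, which codes for CD23, was at 1222, 3577 and 3549 in anti-IgM+CpG and at 16549, 18828 and 16777 in CpG, a change of -2.76 ± 0.36 (adjusted p = 0.0004), with a second probe set at -3.26.

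Pim2, a serine/threonine kinase that favours survival, was at 4181, 2303 and 2484 in anti-IgM+CpG and at 12830, 16792 and 20586 in CpG, and changed by -2.48 ± 0.26 (adjusted p = 7.9e-05). Klf2, a Kruppel-like factor of quiescent lymphocytes, was at 1441, 1570 and 1895 in anti-IgM+CpG and at 10684, 13388 and 3773 in CpG. Its CpG Ambion array stood well below the other two, and its change was -2.28 ± 0.33 with the kit term and -1.83 ± 0.33 with the beta-actin term. Dennd3 and Dennd1c, which code for DENN-domain regulators of Rab GTPases, changed by -2.32 ± 0.19 and -2.59 ± 0.29. Wfdc21 changed by -2.22 ± 0.28 and the cannabinoid receptor gene Cnr2 by -2.22 ± 0.38.

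Xist changed by -4.48 ± 0.34 with the kit term and by -4.34 ± 0.38 with the beta-actin term. Among the falls ranked by size, 5 others moved most with the labelling term. Bcl2l11, the death-promoting BCL2 relative BIM, was at 6342, 8460 and 8288 in anti-IgM+CpG and at 64158, 60432 and 15419 in CpG. Its Ambion minus Enzo difference over the 9 other arrays was -2.06, and its change was -2.35 ± 0.37 with the kit term, -0.98 ± 0.18 with the beta-actin term and -1.01 against CpG replicate 3, the Ambion array, alone. The kit-term value was -3.09 without anti-IgM+CpG replicate 3. C1qa, a complement gene of myeloid cells, changed by -2.95 ± 0.41 and -1.54 ± 0.34 with the kit and beta-actin terms at a kit difference of -2.09, and by -3.56 without anti-IgM+CpG replicate 3. The syndecan gene Sdc4 (-2.32 and -1.49), the glycogen-targeting phosphatase subunit gene Ppp1r3b (-2.71 and -2.09) and the mitochondrial gene Ptcd1 (-2.54 and -1.83) had kit differences of -1.24, -0.86 and -1.01. The part of labelling in these 5 falls was not tested beyond the beta-actin term.

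**Figure D3:**
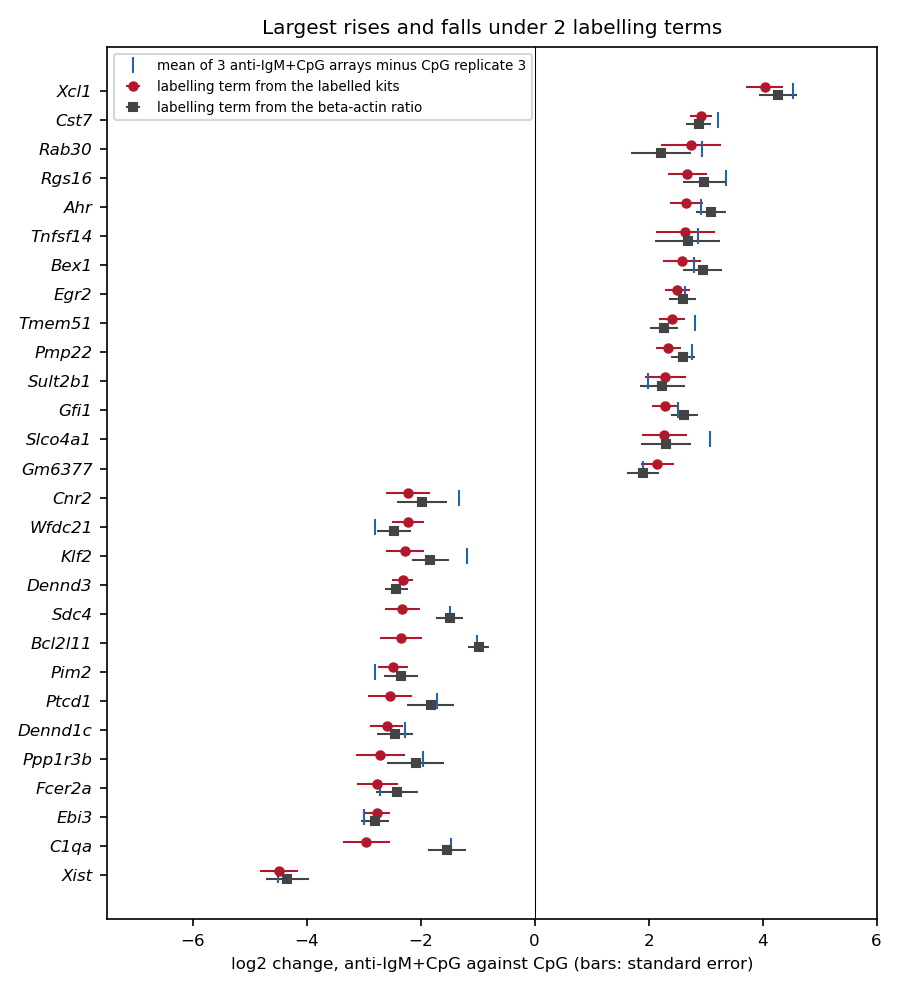
Log2 change, anti-IgM+CpG against CpG, of the 14 largest rises and 14 largest falls, with the labelled kits (circles) and the beta-actin ratio (squares) as the labelling term, bars for SE, and ticks for the mean of the 3 anti-IgM+CpG arrays minus CpG replicate 3. C1qa (-2.95 and -1.54) and Bcl2l11 (-2.35 and -0.98) move most between the terms, and Xcl1, Cst7 and Ebi3 little.

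Immediate early genes are switched on within minutes of receptor signalling. Of 23 tested, 8 rose and 1 fell with the kit term, and 12 rose and 1 fell with the beta-actin term, against 1.91% and 2.61% of all genes with the kit term. The list's median change was 0.30 and 0.88 with the 2 terms, beside -0.03 and -0.00 over all genes. The count of rising genes was 8 without any 1 of the 6 arrays. Egr1 was at 12283, 11347 and 10169 in anti-IgM+CpG and at 6272, 6279 and 2489 in CpG, a rise of 1.27 ± 0.21 (adjusted p = 0.0021). Egr3 rose by 1.43 ± 0.26, with a second probe set at -0.08, and Nab2, a corepressor that binds EGR factors, by 1.67 ± 0.21. Nr4a2, an orphan nuclear receptor, was at 1490, 2386 and 2024 in anti-IgM+CpG and at 457, 376 and 170 in CpG, a rise of 2.37 ± 0.31, while 5 other Nr4a2 probe sets were all lower, the lowest at -0.47.

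The AP-1 members moved in opposite directions. Fosl1 rose by 1.75 ± 0.29 and Fosl2 by 1.34 ± 0.24. Jun was at 6528, 10879 and 10079 in anti-IgM+CpG and at 31009, 34452 and 30776 in CpG, a change of -1.83 ± 0.26 (adjusted p = 0.00093), and a second probe set gave -1.52. Outside the AP-1 members, Ier2 rose by 0.91 ± 0.18. Nr4a1, Nr4a3, Maff and Myc passed only with the beta-actin term, at 1.36, 2.19, 2.38 and 0.83. Fos was at 0.19 (adjusted p = 0.74) and Junb at -1.23 (adjusted p = 0.21), and Junb had a kit difference of -2.89. Junb was called without anti-IgM+CpG replicate 3 (-2.20, adjusted p = 0.0008).

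Downstream of calcium, 1 of 23 genes rose and 2 fell with the kit term, beside 1.91% and 2.61% of all genes. The falls numbered 4 without anti-IgM+CpG replicate 1 and 0 with every array shifted to the same median. Nfatc1, the inducible NFAT factor, was at 5166, 8343 and 7078 in anti-IgM+CpG and at 3459, 3330 and 2617 in CpG, a rise of 1.09 ± 0.19. Ppp3ca, the catalytic subunit of calcineurin, changed by -1.21 ± 0.18, and the inositol trisphosphate kinase gene Itpkb by -0.72 ± 0.15. Itpkb lost its call without anti-IgM+CpG replicate 2, CpG replicate 2 or CpG replicate 3 (adjusted p 0.067, 0.053 and 0.051). Of 21 genes of the ERK pathway and its feedback, Dusp4, a phosphatase that acts on ERK, rose by 1.92 ± 0.19 (adjusted p = 4.6e-05). Its signals were 19583, 14639 and 13995 in anti-IgM+CpG and 3615, 4591 and 4274 in CpG, with no overlap. Without anti-IgM+CpG replicate 3, 2 genes of the list rose and 4 fell, and 0 fell without anti-IgM+CpG replicate 2, CpG replicate 1 or CpG replicate 2. Dusp1 fell with the kit term (-1.19 ± 0.33) but not with the beta-actin term (adjusted p = 0.37), and its kit-term call ended without anti-IgM+CpG replicate 1 or 2 or CpG replicate 1 or 2 (adjusted p 0.079 to 0.26).

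Components of the receptor complex and its first signalling steps were called lower more often than higher with both terms. Of 24 tested, 6 fell and 1 rose with the kit term and 7 fell and 3 rose with the beta-actin term. The list's median was -0.15. Falls outnumbered rises over all genes too, at 2.61% and 1.91% with the kit term and 1.43% and 1.20% with the beta-actin term. Cd79b, the signal-transducing Ig-beta chain, was at 8175, 4753 and 5589 in anti-IgM+CpG and at 18502, 25153 and 24570 in CpG, a change of -1.89 ± 0.37. The adaptor gene Bank1 changed by -1.75 ± 0.28 and the protein kinase C gene Prkcb by -1.40 ± 0.17. Blk, a Src-family kinase of B cells, ran the other way, at 17914, 14183 and 17162 in anti-IgM+CpG and 7169, 8379 and 6495 in CpG, and rose by 1.15 ± 0.16 (adjusted p = 0.00062). The count of falling genes was 3 without anti-IgM+CpG replicate 2, CpG replicate 1 or CpG replicate 2. In those 3 fits the calls of Syk, Blnk and Hcls1 ended (adjusted p 0.052 to 0.17), and those of Syk and Blnk also without anti-IgM+CpG replicate 3, and that of Syk without CpG replicate 3. With every array shifted to the same median 3 genes of the list fell and 2 rose, and its median was 0.13. Cd79a was at -0.75 ± 0.27 (adjusted p = 0.14, and 0.044 without CpG replicate 3), Btk at 0.01 and Plcg2 at 0.28, without passing. Among 18 inhibitory receptors and phosphatases, Pecam1 fell (-2.14 ± 0.34, adjusted p = 0.0017), at 429, 638 and 638 in anti-IgM+CpG and 2514, 2959 and 2747 in CpG. Fcgr2b, the inhibitory IgG receptor, was at -0.90 ± 0.32 (adjusted p = 0.13, 0.048 with the beta-actin term, and 0.0051 without anti-IgM+CpG replicate 1).

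On the TLR9 route, 1 of 24 genes rose and 3 fell with the kit term, beside 1.91% and 2.61% of all genes. In that list 3 rose and 4 fell without anti-IgM+CpG replicate 3, and 2 rose and 1 fell with every array shifted to the same median. Unc93b1, the chaperone that carries TLR9 to endosomes, was at 7824, 7398 and 6183 in anti-IgM+CpG and at 13455, 14153 and 12389 in CpG, a change of -0.90 ± 0.13 (adjusted p = 0.0011). Tlr1 changed by -1.25 ± 0.19. Tlr9 itself was at -0.70 ± 0.51 (adjusted p = 0.49) and the adaptor gene Myd88 at 0.31 ± 0.16 (adjusted p = 0.31), which does not show that they were unchanged. Cd180 (0.99) rose and Irak2 (-0.76) fell with the kit term only, and both lost the call without anti-IgM+CpG replicate 2, CpG replicate 1 or CpG replicate 2 (adjusted p 0.072 to 0.22), Irak2 also without anti-IgM+CpG replicate 1.

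Of 22 NF-kB subunits, IkB proteins and targets, 1 rose and 4 fell with the kit term, and 2 rose and 1 fell with the beta-actin term. The shares over all genes were 1.91% and 2.61% with the kit term, and 1.20% and 1.43% with the beta-actin term. Birc3, an inhibitor of apoptosis, was at 20629, 15477 and 17952 in anti-IgM+CpG and at 41434, 41588 and 30671 in CpG, and fell with both terms (-1.07 ± 0.19 with the kits). Nfkbib, an IkB protein, rose by 0.63 ± 0.13, a call that ended without CpG replicate 2 (adjusted p = 0.060). Map3k8, Gadd45b and Bcl3 fell with the kit term only (-1.41, -1.33 and -1.07), and each lost the call without anti-IgM+CpG replicate 2 or CpG replicate 2 (adjusted p 0.056 to 0.12), Map3k8 and Gadd45b also without CpG replicate 1, and Map3k8 without anti-IgM+CpG replicate 1 (adjusted p = 0.056). The count of falling genes was 1 without anti-IgM+CpG replicate 2 or CpG replicate 2 and 7 without anti-IgM+CpG replicate 3, and 0 with every array shifted to the same median. Rel passed only with the beta-actin term (1.08). Nfkbia and Tnfaip3 were at -0.18 and 0.07 and passed with neither.

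Ebi3, Il6 and Il12a were the cytokine genes called with the kit term. Of 24 tested, 3 fell with the kit term and 0 rose, beside 2.61% and 1.91% of all genes. With the beta-actin term 2 fell and 1 rose, beside 1.43% and 1.20%, with Ebi3 the one that fell with both. The count of falling genes was 2 without anti-IgM+CpG replicate 2, CpG replicate 1 or CpG replicate 3, and 5 without anti-IgM+CpG replicate 3. With every array shifted to the same median 2 cytokine genes rose and 2 fell, and with quantile normalization 1 rose and 3 fell. Il6 was at 5863, 5423 and 4238 in anti-IgM+CpG and at 17208, 14970 and 12485 in CpG, and changed by -1.51 ± 0.33 (adjusted p = 0.014, and 0.24 with the beta-actin term). Its call ended without anti-IgM+CpG replicate 2, CpG replicate 1 or CpG replicate 3 (adjusted p 0.056 to 0.070). Il12a, the p35 chain of interleukin 12, was at 414, 736 and 464 in anti-IgM+CpG and at 2424, 2438 and 1182 in CpG. Its change was -1.73 ± 0.30 with the kits, and -1.12 ± 0.31 with the beta-actin term (adjusted p = 0.077). Both cytokines had separate groups on all 6 arrays. Il12b was at -1.46 ± 0.43 (adjusted p = 0.064, and 0.011 without anti-IgM+CpG replicate 3), Il10 at -0.71, Tnf at 0.03 and Lta at -0.58, without passing. Il2 passed with the beta-actin term (2.61) and without anti-IgM+CpG replicate 1 (adjusted p = 0.045), and Il1b with the beta-actin term only (-0.94).

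Of 14 chemokines, Xcl1 alone was called with the kit term, which called 4.53% of all genes in both directions. Ccl3 was at 99994, 91312 and 85637 in anti-IgM+CpG and at 65102, 64064 and 45502 in CpG, above on all 3 arrays, but passed only with the beta-actin term (1.37 ± 0.31, adjusted p = 0.023, against 0.68 and 0.24 with the kits). Ccl4 was at 0.31, Ccl22 at 1.04 and Cxcl10 at -0.61. Of 32 interferon-stimulated genes only Ifih1, a cytosolic RNA sensor, was called (1.21 ± 0.33, adjusted p = 0.044), not with the beta-actin term, and not without anti-IgM+CpG replicate 1 or 2 or CpG replicate 2 (adjusted p 0.087 to 0.23). The median of that list was -0.19. Of 20 STAT, Janus kinase and SOCS genes, 1 rose and 2 fell with the kit term, beside 1.91% and 2.61% of all genes. With the beta-actin term 4 rose and 1 fell, beside 1.20% and 1.43%. The list's median was -0.05 and 0.29 with the 2 terms. Stat4 rose (0.77 ± 0.19) and Pias1 fell (-0.87 ± 0.15) with both terms, and Jak1 fell with the kit term only (-1.18 ± 0.25, kit difference -1.23). Leaving out CpG replicate 2 ended the calls of Stat4 and Jak1 (adjusted p 0.057 and 0.056), and so did 3 and 2 other arrays.

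Of 25 regulators of plasma cells and germinal centres, 4 fell and 2 rose with the kit term, beside 2.61% and 1.91% of all genes, with 13 negative and 12 positive members in all. With every array shifted to the same median 2 fell and 2 rose, and the list's median was 0.20, against -0.06. Tcf3, which codes for the E2A proteins, was at 2588, 3006 and 3250 in anti-IgM+CpG and at 8113, 8645 and 7911 in CpG, a change of -1.46 ± 0.19 (adjusted p = 0.00033). Pou2f2, the factor Oct-2, changed by -1.33 ± 0.26, Ets1 by -1.51 ± 0.35 and Bcl6, the master factor of germinal centres, by -0.80 ± 0.22, all with both terms. Without CpG replicate 2 these 3 lost the call (adjusted p 0.055, 0.11 and 0.20), and 1 gene of the list fell. Bcl6 also lost it without any other array except anti-IgM+CpG replicate 1, and Ets1 without anti-IgM+CpG replicate 2 or CpG replicate 3. Zbtb32 (1.11, with a second probe set at -0.66) and the coactivator gene Pou2af1 (0.67) rose with the kit term only, and did not without CpG replicate 1, 2 or 3 (adjusted p 0.066 to 0.15) or without anti-IgM+CpG replicate 1. Prdm1, the plasma cell regulator Blimp-1, was at -0.45, Irf4 at 0.30 and Xbp1 at 0.44, and none of them passed with the kit term. Of 23 activation and costimulation molecules, 1 fell and 0 rose with the kit term. With the beta-actin term 1 fell and 2 rose, beside 1.43% and 1.20% of all genes. Icosl, the ligand of ICOS, fell with the kit term (-1.67 ± 0.31), at 880, 806 and 1135 in anti-IgM+CpG and 4874, 3501 and 1769 in CpG. Cd86 was at 0.48, Cd69 at -0.08, Cd40 at -0.46 and Il2ra at 0.22.

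Besides 2.61% of all genes that fell and 1.91% that rose with the kit term, the BCL2 family and death genes were counted. Of these 19, 3 fell and 0 rose with both labelling terms, and 5 fell and 2 rose without anti-IgM+CpG replicate 3. The 3 that fell with both terms were Pim2, Bcl2l11 and Bcl2. Bcl2, the founding anti-apoptotic member, was at 1606, 1345 and 1035 in anti-IgM+CpG and 5287, 4314 and 6440 in CpG. Bcl2 changed by -1.95 ± 0.24 (adjusted p = 0.00023), and 4 further probe sets ran from -2.61 to -0.53. The members that fell thus included both survival-promoting genes and the death-promoting Bcl2l11. Bcl2l1 was at -0.19 and Mcl1 at 0.47 (adjusted p = 0.10, and 0.011 without anti-IgM+CpG replicate 3).

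The kit term called 1 of 23 G1, 1 of 29 S phase and 0 of 27 mitosis genes, beside 4.53% of all genes. Among 23 G1 genes, Ccnd3 fell with the kit term (-0.74 ± 0.19) and among 29 S phase genes Cdc45 did (-1.55 ± 0.38). Both failed with the beta-actin term (adjusted p = 0.083 and 0.33), and without CpG replicate 1 (adjusted p = 0.084 and 0.15) and without 4 and 3 of the other arrays. Cdc45 was at -2.14 without anti-IgM+CpG replicate 3. Of 27 mitosis genes 0 passed with limma and either term, 0 had an unadjusted p under 0.05, and their median was 0.28. Among the 13160 genes tested, 2530 had an unadjusted limma p under 0.05 with the kit term. The brightest, Mki67, was at 22855, 2472 and 3397 in anti-IgM+CpG and at 7007, 9524 and 3859 in CpG, so 1 anti-IgM+CpG array stood far above the other two.

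Of 24 genes of amino acid transport and one-carbon synthesis, 6 rose and 0 fell with the kit term, with a median of 0.32. With that term 1.91% of all genes rose and 2.61% fell. Slc38a1, a glutamine transporter, was at 15062, 15801 and 16085 in anti-IgM+CpG and at 8424, 8381 and 7541 in CpG, and rose by 0.94 ± 0.13 (adjusted p = 0.00076). Shmt1 (0.86) and Slc7a1 (0.78) also rose with both terms, while Slc1a5 (1.12, with a second probe set at -1.21), Bcat1 (1.16) and Psat1 (0.79) rose with the kit term only and had kit differences of 0.87, 0.57 and 0.63. Other probe sets were as low as -0.33 for Slc38a1, -0.42 for Shmt1 and -0.48 for Slc7a1. Psat1 lost its call without replicate 1 or 2 of either group (adjusted p 0.16 to 0.21). The count was 4 without CpG replicate 2, which ended the call of Shmt1 (adjusted p = 0.077, and 0.0504 without anti-IgM+CpG replicate 2), and 8 without anti-IgM+CpG replicate 3. Of 24 genes of cholesterol and fatty acid synthesis, 5 rose and 0 fell, with a median of 0.49. Only Sc5d (0.91 ± 0.16), which makes a late sterol intermediate, rose with both terms, beside Insig1 (1.09), Cyp51 (1.04), Lss (0.81) and Sqle (0.73) with the kit term. The count was 2 without anti-IgM+CpG replicate 2 or CpG replicate 1, and 9 without anti-IgM+CpG replicate 3. Other probe sets gave -1.14 for Sc5d and -0.11 for Lss.

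Of 24 genes of the unfolded protein response and secretion, Manf (1.01), Pdia6 (0.94), Calr (0.61), Canx (0.59) and Ssr1 (0.54) rose with the kit term. Over all genes 1.91% rose with that term. The list's median was 0.46. With the beta-actin term 1 gene of the list rose, which was none of these 5, beside 1.20% of all genes. Other probe sets were as low as -0.90 for Pdia6, -0.42 for Ssr1 and -0.03 for Canx. That count was 0 without anti-IgM+CpG replicate 1 or CpG replicate 2 and 11 without anti-IgM+CpG replicate 3. Of 20 glycolysis genes Pfkp, a phosphofructokinase, rose (1.24 ± 0.18, adjusted p = 0.001), but its 2 other probe sets gave -1.21 and -0.43, and 5 glycolysis genes rose without anti-IgM+CpG replicate 3. Of 32 ribosome biogenesis genes 0 passed with limma and either term, and 9 had an unadjusted p under 0.05, beside 2530 of 13160 over all genes. In this list 2 rose and 1 fell without anti-IgM+CpG replicate 3, and its median was 0.26. Npm1, the brightest, was at 115800, 82456 and 80170 in anti-IgM+CpG and at 84118, 81823 and 80504 in CpG.

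Of 18 B lineage genes 4 fell, 2 rose and 12 were not called, with 7 positive members and a median of -0.42. For this and the next lists, 2.61% of all genes fell and 1.91% rose with the kit term. With every array shifted to the same median 2 fell and 2 rose, with a median of -0.14, and 3 fell without anti-IgM+CpG replicate 2, CpG replicate 1 or CpG replicate 2, against 6 without CpG replicate 3. Ms4a1, which codes for CD20, was at 19690, 15873 and 15805 in anti-IgM+CpG and at 38914, 39706 and 44638 in CpG, a change of -1.26 ± 0.19 (adjusted p = 0.0011). The other falls were Fcer2a, Cd79b and Blnk, given above. Of the 28 genes of the quiescence list, Klf2, Ets1 and Btg2 fell. Slfn2 rose, and so did Ccr6, which the list holds although it codes for a chemokine receptor. Only 1 fell and 1 rose without anti-IgM+CpG replicate 2 or CpG replicate 2, and 7 fell without anti-IgM+CpG replicate 3. Btg2 lost its call without anti-IgM+CpG replicate 2 or CpG replicate 1 or 2 (adjusted p 0.077 to 0.082). Ccr6, a chemokine receptor of B cells, was at 5919, 8217 and 9055 in anti-IgM+CpG and at 2081, 2343 and 2117 in CpG (1.77 ± 0.33), and missed the threshold with the beta-actin term (1.15 ± 0.36, adjusted p = 0.13). The MHC class II genes H2-Ab1 (0.64) and H2-Ea (0.65) rose, and the protease gene Lgmn (-1.36) fell, all with the kit term only. Each lost its call without CpG replicate 2 (adjusted p 0.095, 0.11 and 0.10), and both H2 genes without any other array except anti-IgM+CpG replicate 3. Of 14 marginal zone markers S1pr3, a sphingosine phosphate receptor, rose by 1.84 ± 0.21 with both terms. It was at 2390, 1938 and 2152 in anti-IgM+CpG and at 631, 685 and 372 in CpG.

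Anti-IgM alone against media shares no array with this comparison and shows the receptor effect without CpG. There 1335 genes rose (10.1%) and 1226 fell (9.32%). Of the 252 genes that rose in anti-IgM+CpG against CpG, 151 also rose with anti-IgM alone, 59.9% of these 252 and 11.3% of the genes that anti-IgM alone raised, and 4 fell. Of the 344 that fell, 173 also fell with anti-IgM alone, 50.3% and 14.1% of each list, and 2 rose. Across the 13160 genes the 2 effects correlated at a Pearson r of 0.31, or 0.34 with the beta-actin term, as a description over genes that are not independent. The genes raised by anti-IgM alone had a median change of 0.24 in anti-IgM+CpG against CpG, and those lowered by it -0.27 (0.15 and -0.33 with the beta-actin term). Labelling was measured beside this, and the r between the anti-IgM+CpG against CpG change and the Ambion minus Enzo difference of the 9 other arrays was 0.47 with the kit term and -0.26 with the beta-actin term. The beta-actin term takes its labelling difference partly from the same 9 arrays, so shared error pulls that second r down. The part of labelling in the shared changes was not tested.

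**Figure D4:**
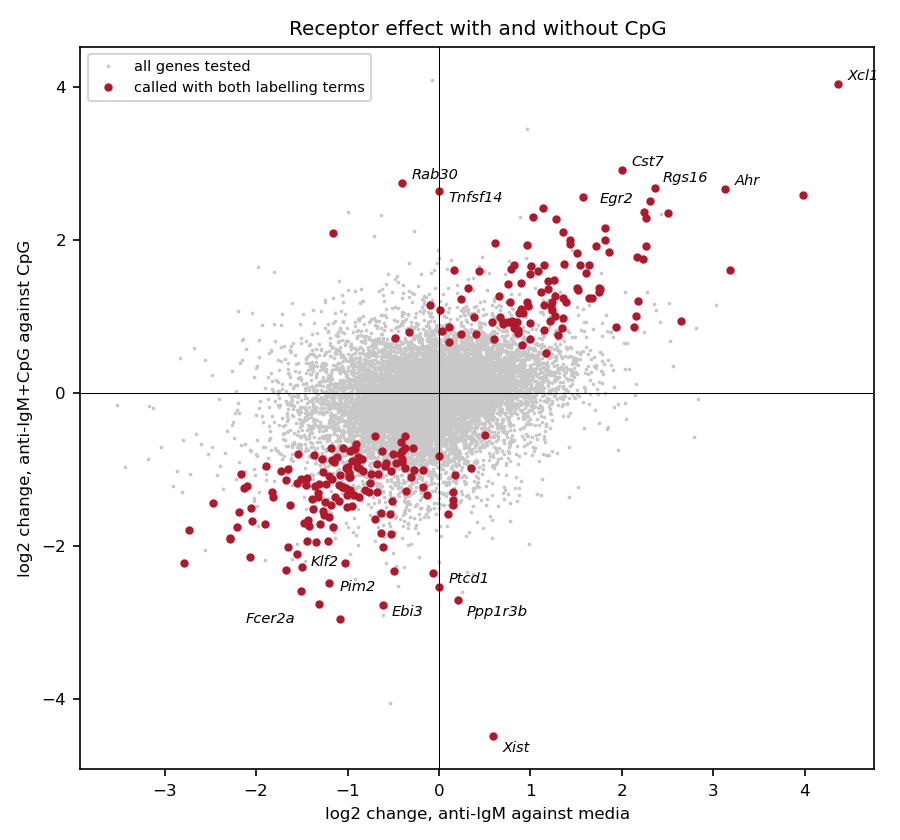
Log2 change of 13160 genes with anti-IgM against media (horizontal) and with anti-IgM+CpG against CpG (vertical), kit term in the fit. Red points are the 252 genes called with both labelling terms. Xcl1 lies at 4.37 and 4.04, Tnfsf14 and Rab30 are high on the vertical axis only, and Xist is low.

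The 2 receptor effects of the largest rises, and of Dusp4 and S1pr3, were set side by side. Xcl1 was at 11709, 14906 and 14302 with anti-IgM alone and at 655, 673 and 456 in media, a change of 4.37 ± 0.32 beside 4.04 with CpG present. Ahr changed by 3.13 and 2.66, Egr2 by 2.31 and 2.50, Gfi1 by 2.27 and 2.29, Pmp22 by 2.50 and 2.34, S1pr3 by 1.86 and 1.84, and Dusp4 by 2.26 and 1.92, without and with CpG. The difference between the 2 effects did not pass for these 7 (adjusted p 0.55 to 0.98), which does not show that they were alike. It passed for Rab30, at -0.40 without and 2.74 with CpG (adjusted p = 0.036), and for Tmem51, at 1.14 and 2.42 (adjusted p = 0.047), in both with the kit term only. It did not pass for Cst7 (2.00 and 2.92, adjusted p = 0.089), Bex1 (3.98 and 2.59, adjusted p = 0.13), Rgs16, Sult2b1, Slco4a1 and Gm6377 (adjusted p 0.20 to 0.78). Tnfsf14 was at 24.0, 18.6 and 25.3 with anti-IgM alone and at 24.1, 26.9 and 17.1 in media, and at 494, 162 and 330 on the PL2-3 arrays, above anti-IgM alone, CpG and media. The difference of its effects, 2.64, missed the threshold (adjusted p = 0.066).

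The difference itself, the receptor effect with CpG minus that without, was called for 329 genes with the kit term (2.50%), 110 positive and 219 negative, and for 338 with the beta-actin term (2.57%). The kit-term count was 195, 204 and 1315 without anti-IgM+CpG replicate 1, 2 or 3, and 68, 185 and 75 without CpG replicate 1, 2 or 3, and it was 28 with every array shifted to the same median. Of the 329, 47 were among the 596 called in anti-IgM+CpG against CpG, which are 4.53% of all genes tested. Both contrasts use the same 6 arrays of these 2 groups, so the overlap is a description. In ribosome biogenesis, 30 of 32 genes rose with anti-IgM alone, beside 10.1% of all genes. The difference was negative in all 32 and called for 16 (17 with the beta-actin term). The list's median difference was -1.06, and it was -1.07 with every array shifted to the same median and -1.21 with quantile normalization. The called number was 2 without CpG replicate 1 and with every array shifted to the same median, and 19 without anti-IgM+CpG replicate 3. Polr1b, a subunit of RNA polymerase I, was at 7810, 7802 and 6722 with anti-IgM alone and at 2313, 2224 and 1012 in media. It was at 5346, 8252 and 7839 in anti-IgM+CpG and at 11148, 8793 and 7192 in CpG, where the groups overlap. Its effects were 2.05 ± 0.23 without CpG and -0.34 ± 0.23 with it, a difference of -2.39 (adjusted p = 0.0042). Myc, a driver of ribosome synthesis, was at 2.15 without and at 0.12 with CpG (difference -2.03, adjusted p = 0.011).

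Ebi3 is a case in which the receptor effect was larger with CpG. It was at 1271, 910 and 908 with anti-IgM alone and at 1622, 1238 and 2030 in media (-0.62 ± 0.23, adjusted p = 0.069), beside -2.76 with CpG, a difference of -2.15 (adjusted p = 0.0063). Siglecg, an inhibitory lectin of B cells, fell by 2.68 with anti-IgM alone and was at 0.58 with CpG (difference 3.27, adjusted p = 0.00029). In CpG it was already at 1781, 1305 and 1586, against 11409, 13616 and 15033 in media. Pou2af1 likewise changed by -1.80 without and 0.67 with CpG (difference 2.47, adjusted p = 0.00017). For Ebi3, Polr1b, Myc, Siglecg and Pou2af1 the difference also passed with the beta-actin term (adjusted p 0.00029 to 0.020).

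**Figure D5:**
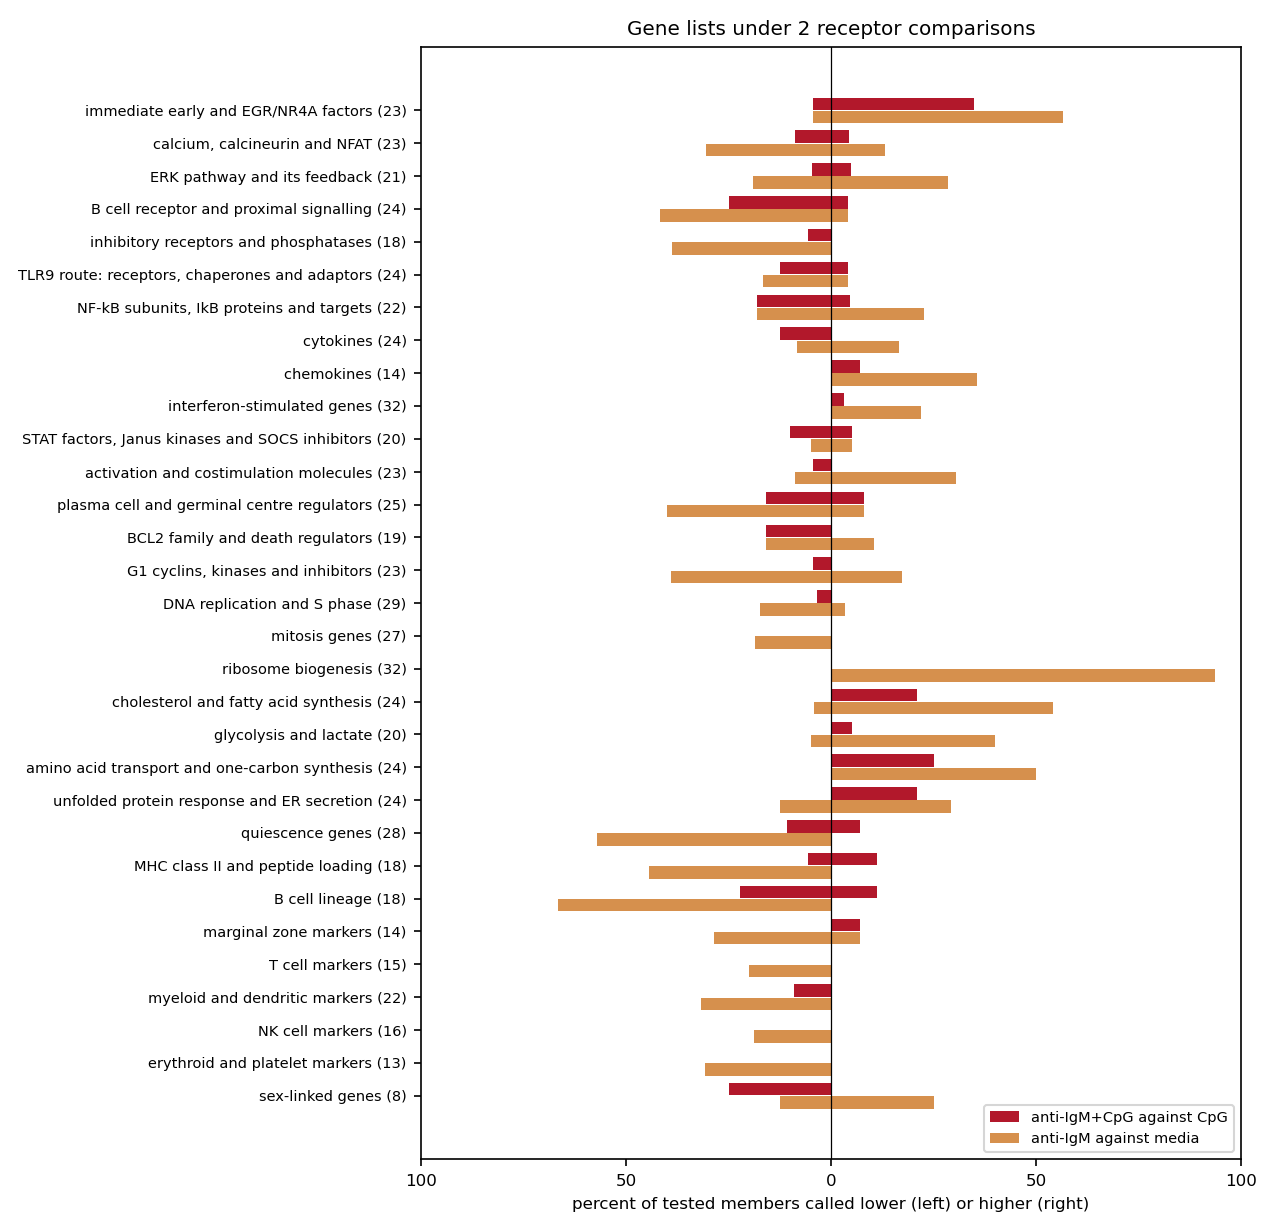
Percent of the tested members of each gene list called higher (right) or lower (left), in anti-IgM+CpG against CpG (red, above) and in anti-IgM against media (orange, below), with the number tested in brackets. Of the ribosome biogenesis genes 0 of 32 were called with CpG present and 30 with anti-IgM alone, while immediate early genes were called in both (8 and 13 of 23 higher). Over all genes tested 1.91% were called higher with CpG present and 10.1% with anti-IgM alone, and 2.61% and 9.32% lower.

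The largest effects of anti-IgM alone were not all repeated. Il15ra, the interleukin 15 receptor chain, changed by 3.18 alone and 1.60 ± 0.41 with CpG. That call ended without anti-IgM+CpG replicates 2 or 3 or CpG replicates 2 or 3 (adjusted p 0.070 to 0.14). The 4 largest falls with anti-IgM alone, Marchf1 (-3.52), Haao (-3.43), Arhgef18 (-3.19) and Sapcd1 (-3.17), were at -0.16, -0.96, -0.87 and -0.16 with CpG and did not pass there. Marchf1 ran from -0.85 without anti-IgM+CpG replicate 1 to 0.82 without replicate 3, and Haao from -1.78 without CpG replicate 3 to -0.06 without CpG replicate 2. All 4 were already far below their media signals in CpG, as with Arhgef18 at 754, 1222 and 547 in CpG and 8243, 7843 and 11795 in media.

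Markers of other blood cells were measured beside these results. The B cell genes Cd79a and Ms4a1 stood far above the array medians in all 6 arrays. Of 22 myeloid and dendritic markers 2 fell, Csf1r (-1.94 ± 0.33) and Tyrobp (-1.71 ± 0.31), with both terms, and 6 fell without anti-IgM+CpG replicate 1. The share of all genes that fell was 2.61% with the kit term and 1.43% with the beta-actin term. The list's median was -0.51, and 18 of 22 members were negative. Csf1r, the receptor for macrophage colony-stimulating factor, was at 2751, 1763 and 2948 in anti-IgM+CpG and at 11193, 17181 and 4476 in CpG. Lyz2 was at 11430, 2760 and 4130 in anti-IgM+CpG and at 4209, 5616 and 6577 in CpG, and S100a8 at 64079, 3035 and 9882 and at 13916, 28508 and 22069, so anti-IgM+CpG replicate 1 was highest and replicate 2 lowest in both genes. S100a8 was at -0.72 and was called without anti-IgM+CpG replicate 1 (-1.99, adjusted p = 0.0092). The summed signal of the list ran from 35028 to 208640 in anti-IgM+CpG and from 85901 to 147090 in CpG. Of 15 T cell, 16 NK cell and 13 erythroid and platelet markers 0 were called with limma and either term. Unadjusted, 1, 3 and 1 had a limma p under 0.05, as did 2530 of the 13160 genes tested. In such bulk samples fewer cells of a type and less RNA per cell cannot be told apart, and the part of other cells in the results was not tested.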

How the data were processed

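The authors deposited 1 table of linear Affymetrix signal intensities for 15 arrays, 3 for each of 5 groups, made with MAS5, per the submitters' processing notes. No version or target is given in the sources used. The 2% trimmed means ran from 1491 to 1494, so arrays were already scaled to a common mean. RNA was taken with an RNeasy kit and labelled with the Enzo or the Ambion kit, per the labels' protocols. The number of arrays limits the precision, and detection calls were not used here.

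Of 45037 probe sets without controls, 34945 had 1 gene symbol, 932 several and 9160 none, by GEO's platform annotation, and 34741 were matched to RefSeq by gene ID. A gene was represented by its probe set of highest mean signal (18193 genes), and tested where that reached the array's median on at least 3 of 15 arrays (13160 genes). To each signal 75.19 was added, which is its 20th percentile over the table, and log2 taken. limma 3.58.1 in R 4.3.3 (lmFit, eBayes with a trend) was fitted to all 15 arrays with group and labelled kit as terms, and p-values were Benjamini-Hochberg adjusted over all tested genes. In the alternative labelling term an array counted as low where its beta-actin ratio was under 0.25. Single measures were compared by an exact permutation test with scipy 1.17.1. The script was tested on simulated data.

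Named genes were the 14 largest rises and falls called with the kit term and in the same direction with the beta-actin term, without overlap between groups or an opposite probe set, up to 4 called members of each gene list, and the 4 largest rises and falls with anti-IgM alone. Immunoglobulin segments were not named for size. Other list members are given for their role. Members and lists were chosen with earlier results of these data known.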

Additional observations from a re-analysis of the deposited data

Results flagged for a closer look

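The receptor effect with CpG minus the receptor effect without CpG differed from 0 by the limma interaction contrast, at an adjusted p under 0.05 with the kit term, for 32 of the genes described, all on the log2 scale. It also passed with the beta-actin term for Xist (-5.07), Ebi3 (-2.15), Arhgef18 (2.32), Blk (1.25), Bcat1 (-1.19), Shmt1 (-1.27), Myc (-2.03), Nfkbiz (-1.73), Cflar (-1.62), Pou2af1 (2.47), Mx2 (-2.70), Siglecg (3.27), Polr1b (-2.39), Rrp9 (-1.37) and Sqle (-1.17).

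It passed with the kit term only for the rises Rab30 (3.14) and Tmem51 (1.28) and the falls Ppp1r3b (-2.91), Ptcd1 (-2.54), Bcl2l11 (-2.28) and Sdc4 (-1.83). The same held for Sapcd1 (3.01), Gadd45b (-1.65), Irf4 (-1.60), the chemokines Ccl3 (-1.84) and Ccl4 (-1.73), the inhibitory receptor Cd22 (1.99), Mcl1 (1.06), Nolc1 (-1.43), Mir155hg (-3.36), the host gene of miR-155, and the Y-linked Eif2s3y (2.33) and Kdm5d (2.03).

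Groups held 3 arrays each, so no single array was tested as an outlier.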

How the results depend on the processing

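The 596 genes called in anti-IgM+CpG against CpG became 220 without a labelling term, 346 with the beta-actin term, 1327 on Enzo arrays only, 13 on arrays of low beta-actin ratio only, 191 with the compared groups alone, 342 without the eBayes trend and 362 with a 2-fold minimum. The arrays of low beta-actin ratio were all 3 of anti-IgM+CpG but only replicate 3 of each other group. A fit to them alone had 2 residual degrees of freedom. Its counts, here and in the next paragraph, thus rest on a single array in CpG, anti-IgM and media. They cannot show whether changes were lost once labelling was matched. The beta-actin term on all 15 arrays gave 266 with the median shift and 294 with quantile normalization, both chosen after seeing the data. Leaving out 1 array gave 263 to 1602, and 179 to 476 with the beta-actin term, with 246, 245 and 269 without anti-IgM+CpG replicate 2, anti-IgM+CpG replicate 3 and CpG replicate 1. Quantile normalization gave 448 and a shift to the same median 419 (71.1% higher), against 42.3% higher.

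The 329 genes with a called difference of receptor effects became 769 with quantile normalization, 28 with the median shift, 36 without a labelling term, 0 by limma on arrays of low beta-actin ratio (1908 at an unadjusted p under 0.05) and 24 without the trend. They became 625 with the beta-actin term and quantile normalization, 68 to 1315 without 1 array, and 12 to 300 so with the beta-actin term (133 without CpG replicate 1). The 2561 genes of anti-IgM against media became 1427 on Enzo arrays, 189 on arrays of low beta-actin ratio and 1158 with a 2-fold minimum.

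Of 105 called genes named, 64 kept the kit-term call without any 1 of the 6 arrays. With the beta-actin term and all 15 arrays 70 of the 105 kept it. These include the 28 genes named for size, whose naming rule asked for that call. With that term and 1 array left out, each fit kept 50 to 66. With probe sets averaged per gene Pfkp was at -0.13 and Slc1a5 at -0.041, the other probe sets being opposite. Syt11, at 4.09, was at -0.088 with the beta-actin term and quantile normalization, and with that term at -0.079, -0.024 and -0.15 without anti-IgM+CpG replicate 1, CpG replicate 1 or CpG replicate 3. The cause of the other shifts was not tested.

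Same-numbered arrays of the 2 groups did not deviate together (correlations 0.06, -0.06 and 0.01), so numbers were not taken as pairs. With a replicate block 613 genes were called, and 337 in the difference.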
